A study of Danio rerio with 4 samples.

Results

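The cadherin superfamily was examined in injured zebrafish hearts that lack functional *cd74a* and *cd74b*. Its genes were taken by name, as every listed gene whose symbol begins with cdh and a digit, pcdh, fat and a digit, celsr, dchs or dsg, which gave 67 of the 20984 genes in the deposited table. Of these, 41 had a mean of at least 10 over the 4 ventricles and were tested, and 26 had lower means and were not tested. RNA was sequenced from single cryoinjured ventricles of 2 *cd74a; cd74b* mutants and 2 wild types (WT). All fish were on the AB background and 3 to 12 months old. By the study's methods, WT and mutant fish came from different crosses, of a wild-type or a double mutant batch with double heterozygous fish. A difference between the crosses cannot be told apart from one between the genotypes. The mutants carried the *bns454* allele, a deletion of 5 bases in *cd74a*, and the *bns456* allele, a deletion of 25 bases in *cd74b*, both predicted to truncate the protein, while the WT ventricles carried neither allele. Each genotype was represented by 1 female and 1 male, which the sample records do not assign to libraries, so sex was not used. The collection time is given as 5 days after cryoinjury in the study's methods and as 7 days in the deposited design text. The deletions were present in every cell of the mutants, so a difference in one cell type cannot be assigned to the loss of the genes in that cell type.

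Cadherins are calcium-dependent adhesion proteins built from repeated extracellular domains. Classical cadherins bind a like molecule on the neighbouring cell and hold on to the actin skeleton through catenins, which is how cardiomyocytes are joined at the intercalated disc and endothelial cells along the vessel wall, and desmosomal cadherins link instead to intermediate filaments. Protocadherins give weaker and more selective contacts and are best known from neurons, whereas the very large Fat, Dachsous and Celsr cadherins orient cells within a sheet, and in Drosophila Fat and Dachsous also act upstream of the growth-restricting Hippo pathway.

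Values are normalized counts, that is, read counts divided by a size factor for each library and rounded to whole numbers by the authors. They summed to 4198389 and 4382529 in the mutants and to 4278663 and 4123819 in the WT ventricles, and the cadherin superfamily made up 0.246% to 0.276% of each total. Each gene was compared with limma on log2(normalized count + 1), and a gene was called at a Benjamini-Hochberg adjusted p-value under 0.05 over the 16065 tested genes together with a log2 fold change of at least 0.59 in size. A log2 fold change is the mutant minus the WT mean on this scale, which understates the change of genes with low values. The targeted genes, examined first as a check of the labels, were both lower in the mutants, *cd74b* with 131 and 117 against 622 and 678 and *cd74a* with 408 and 401 against 837 and 913. The cardiac muscle marker *myl7* was present throughout, at 1043 and 1209 in the mutants and 970 and 1040 in WT. Some blood cell markers differed with genotype. The 4 macrophage genes summed to 1830 and 1838 in the mutants against 3212 and 2902 in WT, with 3 of them called lower. The 2 neutrophil genes summed to 81 and 65 in the mutants against 272 and 169 in WT. Of these 2, *mpx* was called lower and *lyz*, with 7 and 2 in the mutants and 6 and 14 in WT, was not tested. The erythrocyte globin genes summed to 778 and 839 in the mutants against 1077 and 1521 in WT, with 1 of 4 called lower. The T cell gene *cd4-1* was called lower, with 21 and 19 in the mutants against 171 and 162 in WT, while *lck* had 16 and 15 in the mutants and 5 and 28 in WT. Also on the T cell list, *cd3eap*, not called, had 133 and 132 in the mutants and 122 and 147 in WT. *cd8a*, not tested, had 4 and 0 in the mutants and 4 and 7 in WT. The part of these cells in the results was not tested. An exact permutation test of 2 mutants against 2 WT ventricles gives no p under 0.33 for a single gene, and every adjusted p-value therefore rests on variance shared across genes. No call among the members held when any 1 of the 4 ventricles was left out, and none held without the filter on low means, where 0 genes of the whole table were called. Without limma's variance trend, *cdh29* and *pcdh1a4* alone of the 7 kept their calls.

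Changes in the cadherin superfamily went in both directions. In the mutants, 3 members were called lower, the cadherin gene *cdh29*, the endothelial protocadherin gene *pcdh12* and the clustered protocadherin gene *pcdh1a4*, and 4 were called higher, the mesenchymal and T-cadherin genes *cdh11* and *cdh13* and the protocadherin genes *pcdh10a* and *pcdh18a*. The members called lower were 7.32% of those tested, against 7.44% of all tested genes, and those called higher were 9.76%, against 2.7% of all tested genes. The other 34 tested members were not called. The median log2 fold change of the tested members was -0.24, compared with 0.03 over all tested genes, and 14 members had an unadjusted p-value from limma under 0.05, of which 10 were lower and 4 were higher. Over all tested genes 17.2% were lower and 11.7% higher at that p-value. Of the 10 lower members, *cdh29*, *cdh30*, *fat3a*, *pcdh1a4*, *pcdh1g18* and *pcdh1gb2* reached the mean of 10 only through WT. The called *cdh29* and *pcdh1a4* are among them.

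Without any threshold, both mutants lay below both WT ventricles for 12 tested members, a pattern found in 29.4% of all tested genes, and above both for 10, found in 30.5% of all tested genes. The genotypes overlapped for the remaining 19. The median gap between the 2 ventricles of a genotype was 0.36 on the log2 scale in the mutants and 0.53 in WT, against 0.24 and 0.26 over all tested genes. For 8 tested members (*cdh29*, *cdh30*, *celsr2*, *fat3a*, *pcdh15b*, *pcdh1a4*, *pcdh1g18* and *pcdh1gb2*) the mean reached 10 only through WT, and for *pcdh1g13* and *pcdh1gb9* only through the mutants, so that a difference was built into their passing the filter.

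**Figure D1:**
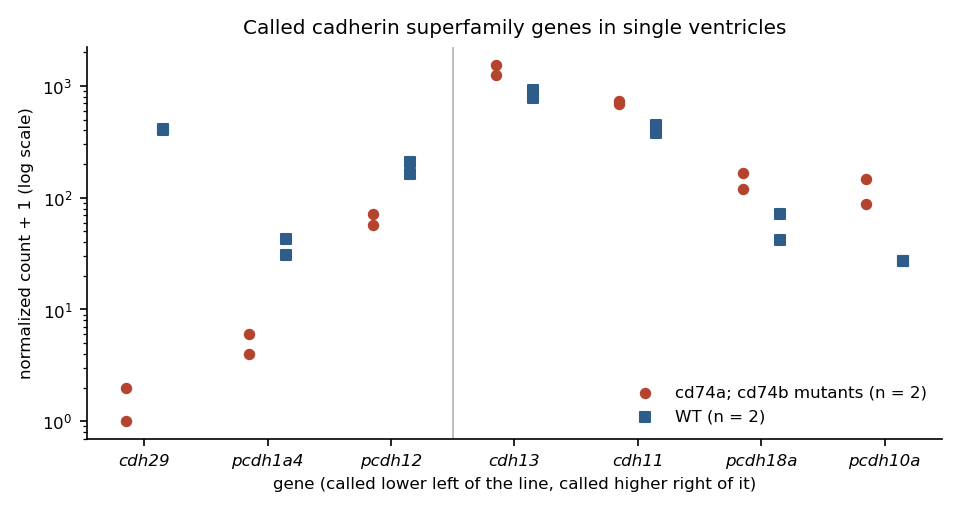
Normalized count + 1 on a log axis for the 7 called cadherin superfamily genes, with 1 point per ventricle (circles, 2 mutants; squares, 2 WT). The genotypes are apart for each gene, by the widest margin for *cdh29*, where the mutants have 1 and 0 and the WT ventricles 401 and 411.

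Of the 3 type I classical cadherins, 0 were called by limma and 0 had an unadjusted p-value under 0.05. The shares over all tested genes were 7.44% called lower and 2.7% called higher, and 17.2% lower and 11.7% higher at that p-value. *cdh2* encodes N-cadherin, the adhesion molecule of the cardiomyocyte intercalated disc, and had 2664 and 2849 in the mutants against 2550 and 2352 in WT. Both mutants were above both WT ventricles, but the difference was small and was not called (log2 fold change 0.17, 95% interval -0.14 to 0.48, limma adjusted p = 0.436). The summed values of 6 cardiomyocyte marker genes were 4519 and 5317 in the mutants and 4313 and 4684 in WT, with none of the genes called. *cdh1*, for the epithelial E-cadherin, had 67 and 52 in the mutants and 57 and 47 in WT, and *cdh4*, for R-cadherin, had 87 and 44 in the mutants and 93 and 59 in WT. The genotypes overlapped for both, and the intervals of their log2 fold changes ran from -0.55 to 0.92 for *cdh1* and from -1.20 to 0.69 for *cdh4*.

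Among the type II classical cadherins, *cdh11* was called and *cdh5* was not. *cdh11* encodes OB-cadherin, which is found on mesenchymal cells and fibroblasts. It had 683 and 728 in the mutants against 379 and 446 in WT, which was 1.71 times as much on average (log2 fold change 0.78, SE 0.15, limma adjusted p = 0.0252). The lower of the mutants lay well above the higher of the WT ventricles. The 5 fibroblast marker genes summed to 13025 and 13598 in the mutants and 11926 and 12394 in WT with none called. One of them, *pdgfra*, went the other way, with 548 and 364 in the mutants against 656 and 833 in WT. The others had log2 fold changes from 0.04 to 0.22. The part of these markers in the *cdh11* result was not tested. In bulk ventricles, more cells of a type and more RNA per cell cannot be told apart.

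*cdh5* encodes VE-cadherin, the adhesion molecule of endothelial junctions. Its values of 1685 and 1427 in the mutants lay below the 1815 and 2171 in WT, with a gap between the genotypes that was smaller than the difference between the WT ventricles. It was not called (log2 fold change -0.36, 95% interval -0.72 to 0.01, limma adjusted p = 0.185). The 7 other endothelial and endocardial marker genes summed to 5832 and 5899 in the mutants and 5664 and 5155 in WT, and 1 of them, *pecam1*, was called higher, with 542 and 529 in the mutants against 285 and 259 in WT. The other tested type II genes, *cdh6* and *cdh18a*, overlapped between the genotypes.

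*cdh13* encodes T-cadherin, which is held in the membrane by a lipid anchor, has no catenin-binding tail and in mammals binds adiponectin in heart and vessels. It had 1250 and 1544 in the mutants against 912 and 780 in WT, 1.65 times as much on average (log2 fold change 0.72, SE 0.16, limma adjusted p = 0.0367). Both mutants were above both WT ventricles, and the gap between the nearest ventricles was larger than the spread within either genotype. With the replicate number as a block, *cdh13* was no longer called (limma adjusted p = 0.0753). In danRer11 coordinates, *cdh13* extends over chromosome 18 from 13792490 to 14134035 and *cdh11* over chromosome 7 from 43760149 to 43857938, on the minus strand and 588 kb from *cdh5*.

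The largest difference in the family was that of *cdh29*, a zebrafish cadherin gene for which no role is given here. Its normalized counts were 1 and 0 in the mutants, against 401 and 411 in WT. Expression was thus at or near the limit of detection in both mutants and very similar in the WT ventricles. The mutants' sum was 0.00123 times that of WT, with an exact 95% interval from 3.11e-05 to 0.00688 that takes the normalized values as counts and covers counting error only, and limma called the gene lower at an adjusted p of 0.00374.

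*cdh29* is on chromosome 7 from 53152108 to 53210386, on the plus strand, in a row of cadherin genes 172 kb long that begins with *cdh1* on the other strand and continues with *cdh28* and *cdh30*. This row was examined after the values had been seen. *cdh28*, with a mean too low for testing, had 2 and 2 in the mutants against 11 and 13 in WT. *cdh30* had 4 and 0 in the mutants against 11 and 25 in WT and was not called (log2 fold change -2.98, SE 1.03, limma adjusted p = 0.107). The 3 plus-strand cadherin genes thus had lower values in both mutants, while *cdh1*, 34.9 kb before *cdh29*, overlapped between the genotypes. Over all listed genes, both mutants lay below both WT ventricles for 28.1%. *cdh29* and *cdh30* reached the mean of 10 only through WT. Of 12 other genes in the row or within 300 kb of it, 9 were tested with limma, 0 were called and 2 had an unadjusted p-value under 0.05, with log2 fold changes from -0.20 to 0.75. Among all tested genes, 7.44% were called lower and 2.7% higher, and 17.2% were lower and 11.7% higher at that p-value.

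The annotated spans of *cdh29* and *cdh28* share 10624 bases on the same strand, and the pseudogene *BX322631.1*, with 6 and 1 in the mutants and 7 and 4 in WT, lies inside *cdh29*. The spans include introns, reads were counted in exons, and reads that overlapped several genes were dropped, so the effect of the overlap on either value was not tested.

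**Figure D2:**
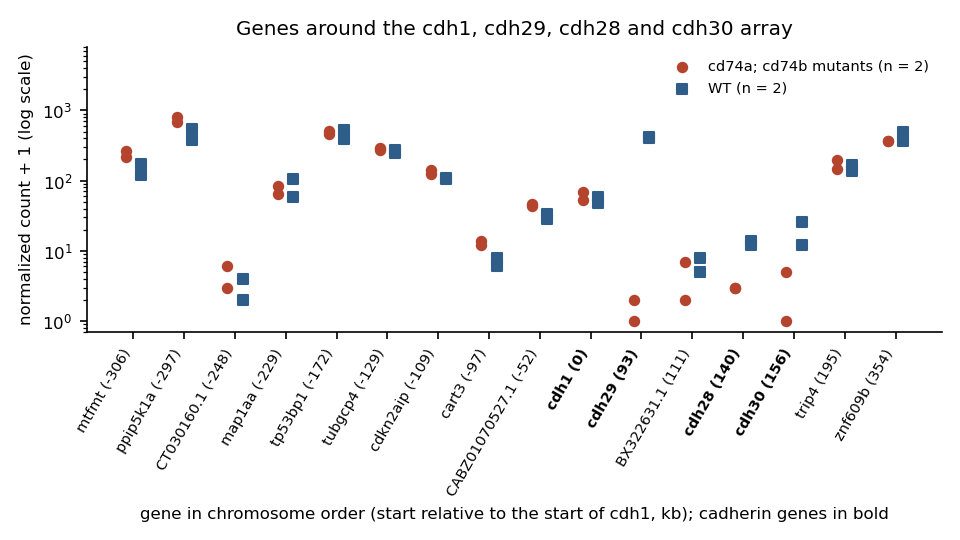
Normalized count + 1 on a log axis for each gene of the row from *cdh1* to *cdh30* and of 300 kb on either side, in chromosome order with each start given in kb from the start of *cdh1* (circles, 2 mutants; squares, 2 WT). Mutants and WT are far apart at *cdh29*, apart at lower values at *cdh28* and *cdh30*, and close together at *cdh1* and most of the neighbours.

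Outside the row and *cdh13*, the tested cadherins of neither classical type were *cdh16*, known from mammalian kidney as KSP-cadherin, and *cdh26.1*. *cdh16* had 30 and 53 in the mutants and 60 and 12 in WT, and *cdh26.1* had 25 and 9 in the mutants and 23 and 27 in WT. The genotypes overlapped for both. The desmosomal cadherins were represented by *dsg2.1*, a desmoglein gene related to the desmoglein of the cardiac desmosome and annotated in the table as a processed transcript. It had 212 and 215 in the mutants against 139 and 175 in WT, above both WT ventricles but not called (log2 fold change 0.45, 95% interval -0.02 to 0.92, limma adjusted p = 0.188).

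Of the 16 nonclustered protocadherins 11 were tested. Limma called 1 lower and 2 higher, against 7.44% lower and 2.7% higher of all tested genes. *pcdh12*, an endothelial protocadherin in mouse and human, had 70 and 56 in the mutants against 209 and 161 in WT. Both mutants were far below both WT ventricles, at 0.341 times the WT mean (log2 fold change -1.54, SE 0.26, limma adjusted p = 0.0169). It was not called without the variance trend (limma adjusted p = 0.0528). The endothelial and endocardial markers went in both directions, with *pecam1* called higher, as given above, and *she*, not called, at 298 and 228 in the mutants against 431 and 401 in WT, and *tie1*, not called, at 1131 and 1112 in the mutants against 1258 and 1251 in WT. Their part in the *pcdh12* result was not tested. *pcdh12* is on chromosome 14 from 16308840 to 16328331, 13260 kb from the targeted *cd74a*.

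*pcdh10a* and *pcdh18a* belong to the delta-2 protocadherins, which are studied mainly in the nervous system and act on actin through the WAVE complex. *pcdh10a* had 145 and 86 in the mutants against 26 and 26 in WT, 4.44 times as much on average (log2 fold change 2.06, SE 0.35, limma adjusted p = 0.0174). The mutants differed from each other but each was more than 3 times the WT value. *pcdh18a* had 164 and 119 in the mutants against 71 and 41 in WT, 2.53 times as much on average (log2 fold change 1.36, SE 0.34, limma adjusted p = 0.0472). Its genotypes did not overlap, but the adjusted p-value was close to the threshold and was 0.0521 with a pseudocount of 0.1. The genes are neighbours on chromosome 1, *pcdh10a* from 12763461 to 12797410 and *pcdh18a* from 13260809 to 13271569, with 463 kb between them.

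Their duplicates on chromosome 14, *pcdh10b* and *pcdh18b*, were not called. *pcdh10b* had 83 and 66 in the mutants and 60 and 59 in WT (log2 fold change 0.31, 95% interval -0.35 to 0.97), and *pcdh18b* had 29 and 17 in the mutants and 16 and 48 in WT (log2 fold change -0.31, limma adjusted p = 0.766). The difference between the duplicates was not tested. The 4 neuronal marker genes found summed to 572 and 336 in the mutants and 302 and 631 in WT, and the 5 glial marker genes to 127 and 92 in the mutants and 64 and 146 in WT, with the sums overlapping between the genotypes. None of the neuronal genes was called. The glial genes went in different directions. *plp1b* was called higher, with 89 and 70 in the mutants against 19 and 18 in WT (log2 fold change 2.04, limma adjusted p = 0.0179), whereas *mbpa*, not called, had 18 and 1 in the mutants and 13 and 94 in WT. The part of neural tissue in the protocadherin values was not tested.

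*pcdh19*, a delta-2 protocadherin that associates with N-cadherin in zebrafish and is mutated in a human epilepsy, had 220 and 219 in the mutants against 357 and 309 in WT. The mutants were almost identical and below both WT ventricles, yet the gene was not called (log2 fold change -0.60, SE 0.17, limma adjusted p = 0.0667). After rescaling to equal upper quartiles and after cyclic loess it passed, at limma adjusted p-values of 0.0495 and 0.0434. Of the other 7 uncalled nonclustered protocadherins, 6 overlapped between the genotypes and *pcdh10b* did not. Over all 16065 tested genes, 6437 overlapped. The log2 fold changes of these 7 protocadherins lay between -0.31 and 0.31. They include *pcdh15a*, whose human counterpart forms part of the hair cell tip link, with 213 and 238 in the mutants between the 340 and 120 of the WT ventricles.

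**Figure D3:**
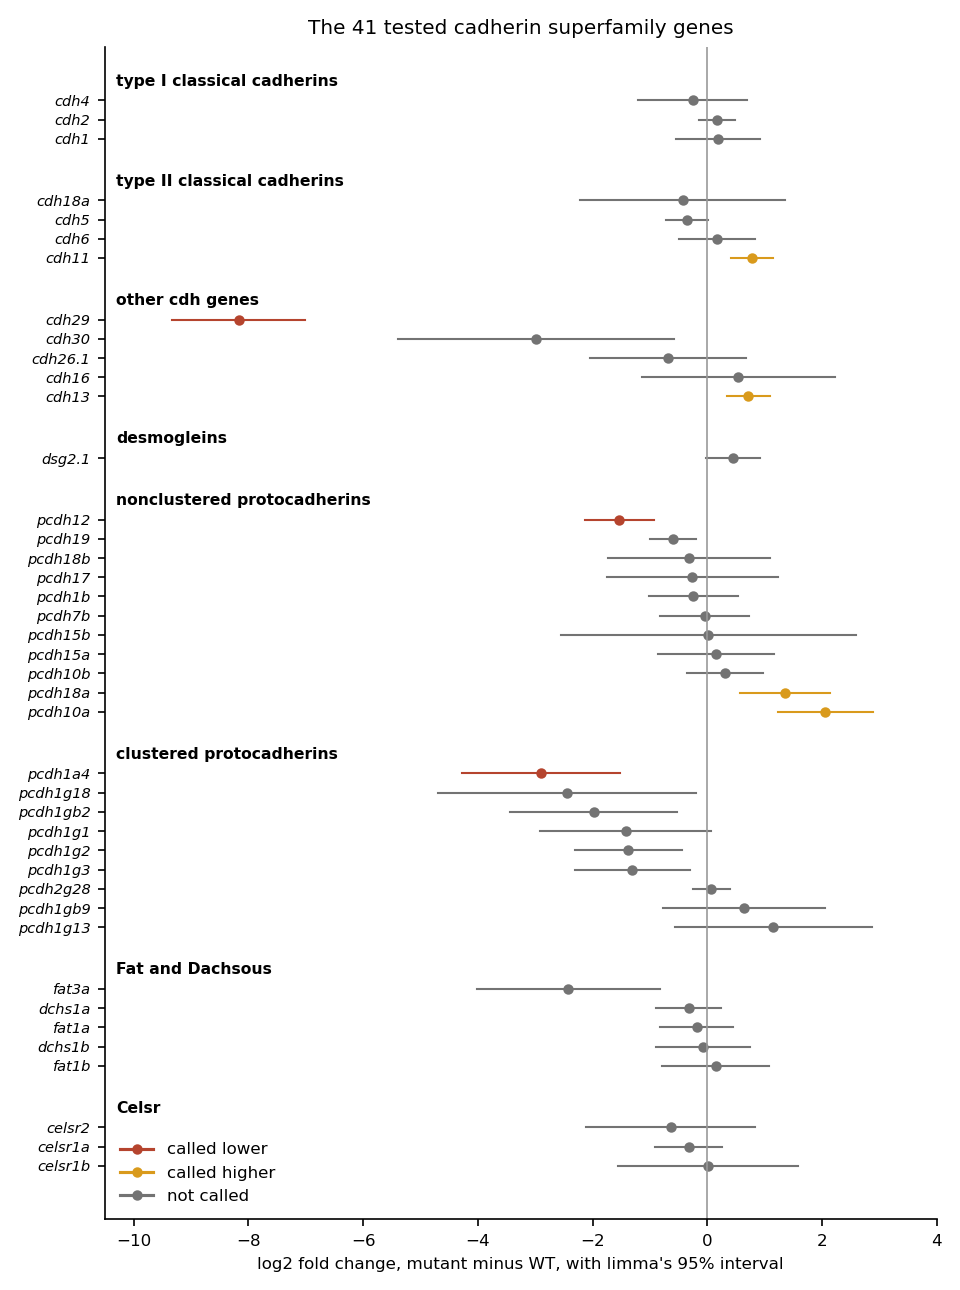
Log2 fold change (mutant minus WT, horizontal axis) with limma's 95% interval for each of the 41 tested members, grouped by subfamily. The called members are coloured, and the clustered protocadherins hold 6 of 9 points below 0, at -1.30 or less, while the type I classical cadherins lie between -0.26 and 0.19.

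The clustered protocadherins form tandem arrays in which variable first exons, each with its own promoter, are spliced to shared constant exons, and in neurons the combination of them labels each cell. The table held 22 of them, of which 9 were tested. Limma called 1 lower and 0 higher, against 7.44% lower and 2.7% higher of all tested genes. At an unadjusted limma p-value under 0.05, 5 were lower and 0 higher, against 17.2% and 11.7% of all tested genes. Among these 5, *pcdh1a4*, *pcdh1g18* and *pcdh1gb2* reached the mean of 10 only through WT. *pcdh1a4*, on chromosome 10 from 21563986 to 21649172, had 5 and 3 in the mutants against 42 and 30 in WT. It was low in both mutants and clearly present in both WT ventricles (log2 fold change -2.90, SE 0.58, limma adjusted p = 0.0263). It was not called with the replicate number as a block (limma adjusted p = 0.0574).

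In the cluster on chromosome 10, which spans 260 kb and holds 17 members, both mutants lay below both WT ventricles for 10 members, above both for 3 (*pcdh1g11*, *pcdh1gb9* and *pcdh1g13*) and overlapped for 4. This split covers all 17 members, those under the filter included, and over all listed genes both mutants lay below both WT ventricles for 28.1% and above both for 26.2%. Summed over the cluster, the values were 157 and 97 in the mutants against 317 and 253 in WT. Within the cluster the members differed in direction, so the lower sum did not describe each of them.

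Of the other genes of this cluster, *pcdh1g2* had 26 and 19 in the mutants against 73 and 48 in WT (limma adjusted p = 0.0687). *pcdh1g3* had 23 and 14 in the mutants against 50 and 42 in WT (limma adjusted p = 0.0946). *pcdh1gb2* had 4 and 5 in the mutants against 25 and 17 in WT (limma adjusted p = 0.0847, and 0.0437 without the variance trend). These genes had the same order of genotypes as *pcdh1a4*, with log2 fold changes of -1.37 for *pcdh1g2*, -1.30 for *pcdh1g3* and -1.98 for *pcdh1gb2*, and were not called. *pcdh1g18* had 1 and 15 in the mutants against 28 and 32 in WT, so that its log2 fold change of -2.45 had a wide interval of -4.70 to -0.20 (limma adjusted p = 0.143). In the other direction, *pcdh1g13* had 22 and 8 in the mutants against 6 and 5 in WT, and *pcdh1g11*, annotated as a polymorphic pseudogene, had 9 and 5 in the mutants and was listed at 0 in both WT ventricles.

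Many annotated spans in the cluster, introns included, overlap on the same strand, and 24 of the 67 members share such bases with another listed gene on their own strand. Reads that overlapped several genes were dropped, and how this divided the reads within the cluster was not tested. *pcdh1a4* also overlaps the antisense gene *BX957322.2*, and a strand setting for counting is not given in the sources used here. Of 10 other genes in the cluster or within 300 kb of it, 7 were tested. Limma called 2 clone-named genes lower and 0 higher, against 7.44% lower and 2.7% higher of all tested genes. *FO744833.1* had 6 and 1 in the mutants against 42 and 42 in WT and reached the mean of 10 only through WT. A neighbour had 23 and 24 in the mutants against 62 and 70 in WT.

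In the second cluster, on chromosome 14, only *pcdh2g28* of the 5 listed members was tested, and it had 772 and 784 in the mutants and 767 and 716 in WT (log2 fold change 0.07, 95% interval -0.25 to 0.39). It made up nearly the whole sum of that cluster, 774 and 784 in the mutants and 776 and 733 in WT. *pcdh2ab6*, which was not tested, had 1 and 0 in the mutants against 8 and 9 in WT. This cluster lies 752.5 to 1006 kb from *cd74a*, the nearest members to a targeted gene. Of 9 other genes in the cluster or within 300 kb of it, 4 were tested with limma and 1 was called lower. Among all tested genes, 7.44% were called lower and 2.7% higher. The neighbour called lower was *LO018564.1*, with 14 and 5 in the mutants against 76 and 38 in WT. Of the 4 tested, 2 had an unadjusted p-value under 0.05, and log2 fold changes ran from -2.53 to 0.27. These 2 were *LO018564.1* and *LO018106.1*, the latter with 11 and 5 in the mutants against 43 and 26 in WT. Both passed the filter on low means only through WT. In all, 13 members share chromosome 14 with *cd74a*, and 0 share chromosome 21 with *cd74b*. Of the 13, the *pcdh2ab* genes, *fat2* and *pcdh11* were not tested. *pcdh12* alone of the tested ones was called, against 7.44% lower and 2.7% higher of all tested genes.

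**Figure D4:**
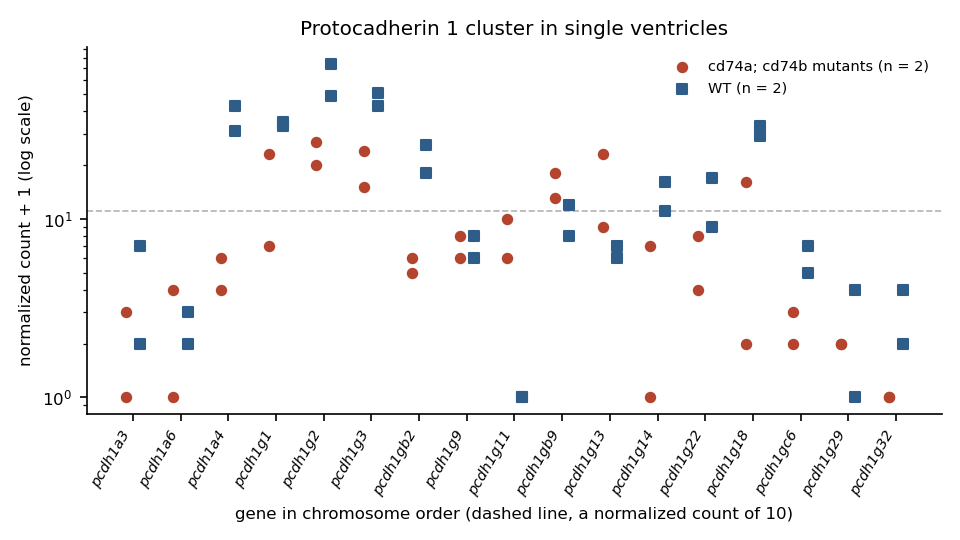
Normalized count + 1 on a log axis for the 17 members of the protocadherin cluster on chromosome 10, in chromosome order (circles, 2 mutants; squares, 2 WT; dashed line, a normalized count of 10). Both mutants lie below both WT ventricles for 10 genes and above both for 3.

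Of the 8 tested Fat, Dachsous and Celsr genes limma called 0, and *fat3a* alone had an unadjusted p-value under 0.05. The shares over all tested genes were 7.44% called lower and 2.7% called higher, and 17.2% lower and 11.7% higher at that p-value. *fat1a*, for a giant cadherin that in mammals acts on actin at cell contacts, had 1292 and 1287 in the mutants, between the 2023 and 1064 of the WT ventricles. *fat3a*, whose mouse counterpart shapes neurons of the retina, had 11 and 4 in the mutants against 25 and 65 in WT. Its genotypes did not overlap, but the values were low and variable (log2 fold change -2.42, SE 0.68, limma adjusted p = 0.0649). *fat3a* reached the mean of 10 only through WT. The Dachsous genes, for the ligands that bind Fat proteins on the next cell, gave 209 and 190 in the mutants and 199 and 311 in WT for *dchs1a*, and 110 and 119 in the mutants and 174 and 83 in WT for *dchs1b*. Mutant and WT values overlapped for both, with 95% intervals of the log2 fold change from -0.88 to 0.25 for *dchs1a* and from -0.89 to 0.75 for *dchs1b*. No listed gene carried the name *fat4*.

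The Celsr genes encode the vertebrate relatives of Drosophila Flamingo, cadherins that are also adhesion G protein-coupled receptors and belong to the core of planar cell polarity. *celsr1a* had 137 and 169 in the mutants and 232 and 157 in WT (log2 fold change -0.33, 95% interval -0.91 to 0.26). *celsr1b* had 7 and 15 in the mutants and 13 and 8 in WT, and *celsr2* had 7 and 12 in the mutants and 20 and 11 in WT. The genotypes overlapped for each of these genes, and the 95% intervals of the log2 fold change were wide at these low values, from -1.56 to 1.58 for *celsr1b* and from -2.11 to 0.83 for *celsr2*.

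The 26 members that were not tested had means of at most 8.5, and 4 of them reached a value of 10 in at least 1 ventricle. These were *cdh28*, given above, *fat2* with 5 and 0 in the mutants and 0 and 13 in WT, *pcdh1g14* with 6 and 0 in the mutants and 10 and 15 in WT, and *pcdh1g22* with 7 and 3 in the mutants and 16 and 8 in WT. The member with the lowest tested mean was *cdh30*, at 10, followed by *pcdh1g13* at 10.25, and the highest untested mean was that of *pcdh1g22*.

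Proteins that work with cadherins were described from lists of textbook partners. Of 25 tested genes for catenins and other junction plaque proteins, 1 was called lower and 2 higher. Over all tested genes, 7.44% were called lower and 2.7% higher. At an unadjusted limma p-value under 0.05, 4 junction plaque genes were lower and 6 higher, against 17.2% and 11.7% of all tested genes. Among the 4 lower genes, *jupb*, with 6 and 1 in the mutants against 12 and 28 in WT, passed the filter on low means only through WT. The median log2 fold change of the list was 0.13. *dspb*, for the desmosomal linker desmoplakin, had 274 and 235 in the mutants against 783 and 711 in WT (log2 fold change -1.55, SE 0.16, limma adjusted p = 0.00669). Its duplicate *dspa* had 930 and 817 in the mutants against 1398 and 1218 in WT and was just outside the threshold (log2 fold change -0.58, limma adjusted p = 0.0504). *pkp2*, for the cardiac desmosome protein plakophilin 2, had 303 and 293 in the mutants against 153 and 110 in WT (log2 fold change 1.19, SE 0.22, limma adjusted p = 0.0204). Desmosomal genes were thus called in each direction. *plekha7b*, for an adherens junction protein, was also higher, with 514 and 519 in the mutants against 318 and 290 in WT (limma adjusted p = 0.025). *ctnnb1*, for beta-catenin, had 2133 and 2443 in the mutants against 1895 and 1714 in WT and was not called (log2 fold change 0.34, limma adjusted p = 0.165), and *ctnna1*, for alpha-catenin, overlapped.

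Of 20 tested planar polarity genes, the partners of Celsr, 1 was called in each direction and the median log2 fold change was 0.05. Over all tested genes, 7.44% were called lower and 2.7% higher. At an unadjusted limma p-value under 0.05, 4 planar polarity genes were lower and 7 higher, against 17.2% and 11.7% of all tested genes. *dvl1a*, for a Dishevelled protein, had 47 and 30 in the mutants against 157 and 116 in WT (log2 fold change -1.82, limma adjusted p = 0.0204). *prickle1a*, for a core protein that in Drosophila lies on the opposite side of the cell from Dishevelled, had 173 and 142 in the mutants against 65 and 33 in WT (log2 fold change 1.74, limma adjusted p = 0.0275). Among the 16 Hippo pathway genes, limma called 3 lower and 0 higher, against 7.44% lower and 2.7% higher of all tested genes. At an unadjusted limma p-value under 0.05, 6 Hippo genes were lower and 0 higher, against 17.2% and 11.7% of all tested genes. Among these, *wwc1*, with 14 and 5 in the mutants against 33 and 84 in WT, reached the mean of 10 only through WT. The median log2 fold change of the list was -0.31. *wwtr1*, for the transcriptional co-activator Taz, had 38 and 13 in the mutants against 195 and 185 in WT (log2 fold change -3.03, limma adjusted p = 0.0143). *tead3b*, for one of the DNA-binding partners of Taz and Yap, had 23 and 10 in the mutants against 118 and 109 in WT (log2 fold change -2.82, limma adjusted p = 0.0143). *lats2*, for the kinase that inhibits them, had 139 and 60 in the mutants against 482 and 372 in WT (log2 fold change -2.20, limma adjusted p = 0.0172). The genes called lower thus included effectors and an inhibitor of the pathway, and *yap1* was not called, with 889 and 881 in the mutants against 775 and 744 in WT.

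Cadherin-repeat genes named differently, among them the desmocollin gene *dsc2l* with 1012 and 1036 in the mutants and 985 and 931 in WT, gave 3 tested genes, of which limma called 0, with 0 at an unadjusted p-value under 0.05. Of all tested genes, 7.44% were called lower and 2.7% higher, and 17.2% were lower and 11.7% higher at that p-value.

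**Figure D5:**
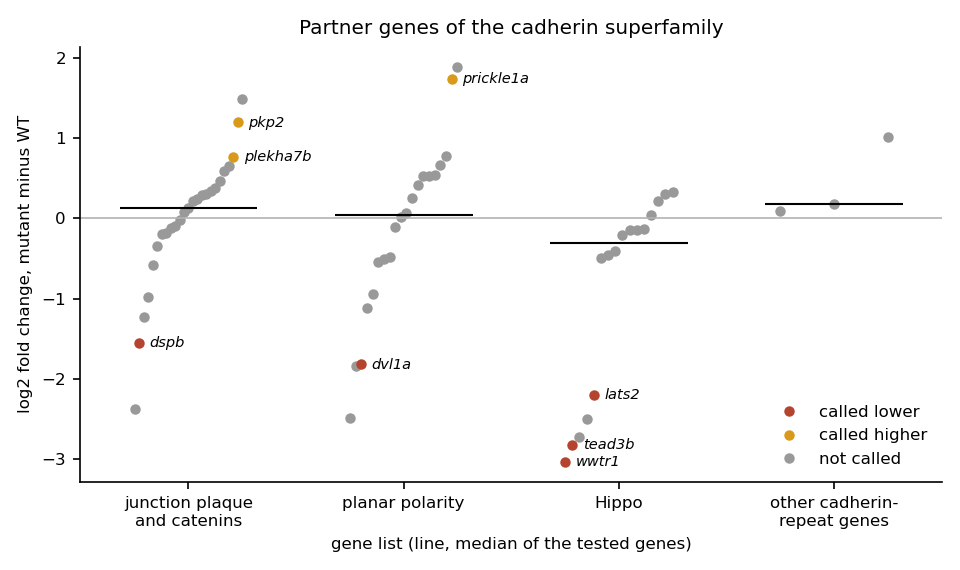
Log2 fold change (mutant minus WT, vertical axis) of each tested partner gene in the junction plaque, planar polarity, Hippo and other cadherin-repeat lists, with a line at each median. Called genes are coloured and named. Of 16 Hippo genes 3 were called lower and 0 higher, against 7.44% lower and 2.7% higher of all tested genes.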

How the data were processed

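Libraries of single-end reads were, according to the study's methods and the labels, trimmed (Trimmomatic 0.39) and mapped with STAR 2.7.9a to danRer11, with genes from release 104 of Ensembl. Gene counts were made with featureCounts 2.0.2, and a read that touched more than 1 gene or mapped to more than 1 place was dropped. The authors deposited a score for each gene and ventricle, which is a count normalized in DESeq2 1.30.0 and rounded to a whole number, so no count test was run here. Groups and replicate numbers came from the sample records.

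The members and gene lists were chosen with earlier results of these data known. Genes with a mean of at least 10 (16065 of 20984) were fitted in limma 3.58.1 under R 4.3.3, with a variance trend, after a pseudocount of 1 and log2 transformation. Prior degrees of freedom were 5.33. Calls needed a Benjamini-Hochberg adjusted p-value below 0.05 and a log2 fold change of 0.59 or more in size. Named members are those called, those uncalled with an unadjusted p-value under 0.05, those with a textbook place in heart or vessel, and untested ones reaching 10. A few others and the neighbouring genes on chromosomes 7, 10 and 14 were chosen after their values were seen. Gene IDs matched the gene name table for 66 of 67 members. Replicate numbers belong to different animals, and deviations from the genotype means correlated at -0.066 between ventricles of the same number, so no block was used. Alternatives were other pseudocounts, filters, variance models, scalings and fold limits, a replicate block, and leaving out each ventricle. P-values weigh the genotype difference against the spread between these ventricles within a genotype, combined with variance shared across genes. Promoter and protein sequences were not used here.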

Additional observations from a re-analysis of the deposited data

How the results depend on the processing

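Directions of the 7 called members held under each of the 17 alternatives in which they were tested (*pcdh1a4* was under the minimum mean of 50), but their calls did not. Without the filter on low means, 0 members, 0 genes of the whole table and 0 genes of each partner list were called in either direction, although 5015 of 20984 genes had an unadjusted limma p-value under 0.05 and the smallest adjusted p-value, that of *cdh29*, was 0.0518. Leaving out 1 ventricle at a time gave 0 calls in either direction each time, over all genes and in every list (lowest and highest 0), with 2148 to 3323 genes at an unadjusted p-value under 0.05. Log2 fold changes stayed between -8.67 and -7.67 for *cdh29*, -1.72 and -1.35 for *pcdh12*, -3.19 and -2.61 for *pcdh1a4*, 1.69 and 2.43 for *pcdh10a*, 0.66 and 0.89 for *cdh11*, 0.57 and 0.87 for *cdh13* and 0.97 and 1.74 for *pcdh18a*. Without the variance trend, 3 members were lower and 0 higher (*pcdh12* lost its call at a limma adjusted p of 0.0528 and *pcdh1gb2* gained one at 0.0437), against 461 lower and 82 higher among all genes, and the junction plaque, planar polarity and Hippo lists gave 1, 0 and 0 calls. With the replicate block, 2 members were lower and 3 higher, against 740 lower and 215 higher among all genes. A fold-change limit of 1 left 2 members and 238 genes higher. The Hippo list gave 5 calls with a pseudocount of 5 and 5 with the trimmed mean of log ratios. Among the named members, signs turned for uncalled ones only. *celsr1b* was at -0.0165 after rescaling to equal totals and at -0.0207 with equal upper quartiles, and when a ventricle was left out ranged from -0.49 to 0.51, *cdh4* from -0.74 to 0.23, *fat1a* from -0.65 to 0.28, *dchs1a* from -0.64 to 0.00198 and *dchs1b* from -0.60 to 0.46. The cause of these changes was not tested.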
